A study of Mus musculus with 12 samples.

Results

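The genes described here encode the complement, coagulation and fibrinolysis proteins that hepatocytes release into blood. They are 41 named genes of the 48537 in the deposited table, chosen from a list of symbols with the serpin inhibitors left out, and each symbol matched 1 row. All 41 passed the filter on low values, a mean of at least 1 TPM over the 12 libraries, as did 17957 genes of the whole table. TPM, transcripts counted per a fixed total of transcripts, is scaled by gene length and by the library, so levels of different genes can be set side by side. This is less sure for genes whose exons are shared with another gene model.

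The samples were whole livers of mice (Mus musculus) at zeitgeber time 10, the hour count from lights on, with 4 livers in each of 3 groups. Control livers carried the genotype label wildtype and the name YFP in their titles. DKO-labelled livers had a genotype label naming a double knockout of the REV-ERBs, and their titles also name YFP. Re-expression livers carried the same knockout label in the title together with REV-ERBalpha-WT, and the genotype label says that they re-express REV-ERBalpha. The column names of the table add Cre to YFP for the DKO-labelled livers and WT to YFP for the re-expression livers. YFP is thus named for both DKO-labelled and control livers, while an effect of Cre cannot be told apart from that of the knockout between them. For the re-expression livers YFP is in the column names but not in the titles. Strain, sex, age, the floxed exons and how Cre and REV-ERBalpha were delivered were not found in the labels or the table.

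Complement is a cascade of plasma proteins that marks and lyses microbes. It starts from antibody through C1, from microbial sugars through the mannose-binding lectins, or from spontaneous turnover of C3 with factor B, and all routes meet at C3 and end in the membrane attack complex. Coagulation is a parallel cascade of serine proteases that ends when thrombin turns fibrinogen into fibrin, and plasmin dissolves the clot. The liver makes most of these proteins, several of them as acute phase proteins whose genes respond to cytokines. REV-ERBalpha and REV-ERBbeta (Nr1d1 and Nr1d2) are nuclear receptors of the circadian clock that repress transcription at response elements built on the motif AGGTCA.

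The libraries held between 5621667 and 6906221 recovered reads. Nr1d1 stood at 68.7 ± 5.53 TPM in control livers, 82.5 ± 7.39 in DKO-labelled livers and 191 ± 22.4 in re-expression livers (SD, n = 4 each). Nr1d2 stood at 96.6 ± 14.9, 90.4 ± 7.91 and 97.7 ± 15.1 TPM. The log2 changes of 0.26 and -0.09 between DKO-labelled and control livers did not pass the test (limma adjusted p = 0.173 and 0.792), and a sum over a whole gene does not check a deletion of some exons, so the group keeps its label as a name. The 7 hepatocyte markers found in the table summed to between 61907 and 69035 TPM over all libraries, and 2 of them were called higher in DKO-labelled livers than in control livers. Macrophage markers (12 of 12 found) summed to between 519 and 1164 TPM in control livers, 551 and 613 in DKO-labelled livers, and 475 and 1139 in re-expression livers, and none of them was called between the first 2 groups. Stellate cell and fibroblast markers (10 of 10 found) summed to between 262 and 396, 431 and 474, and 363 and 442 TPM, and 4 of them were higher in the DKO-labelled livers. Sinusoidal endothelium markers (10 of 10 found) summed to between 253 and 281, 297 and 362, and 194 and 301 TPM, with 0 called. Neutrophil markers, 6 in all, summed to between 11.3 and 54.4 TPM in control livers. They summed to between 4.73 and 14.1 TPM in DKO-labelled livers and between 6.95 and 20.9 TPM in re-expression livers. Of the platelet markers Gp1bb was listed at 0 in all libraries. Red blood cell markers (5 of 5 found) summed to between 276 and 382 TPM in control livers, 400 and 686 in DKO-labelled livers, and 372 and 835 in re-expression livers. The first 2 of these ranges do not overlap, with 0 called, and the same 2 ranges of the stellate cell and endothelium lists do not overlap either. The median log2 change between DKO-labelled and control livers was 0.85 for red blood cell, 0.50 for stellate cell and 0.31 for endothelium markers. It was 0.06 for hepatocyte, -0.41 for macrophage and -0.72 for neutrophil markers (2 tested). The part of other cell types in the results was not tested.

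These genes are among the most abundant in liver. In control livers 14 of the 41 had a mean of at least 1000 TPM and 38 had at least 100 TPM. C3, the hub of complement, had the highest mean, 5516 ± 739 TPM (SD, n = 4). Ahsg, the fetuin that binds calcium phosphate, followed at 4497 ± 241, then the fibrinogen chain genes Fga at 3980.2 ± 767 and Fgg at 3451 ± 770.3. The lowest were Cfb, complement factor B, at 10.9 ± 1.09 TPM, C2 at 41.1 ± 2.79 and Pros1, protein S, at 83.9 ± 15.0. Most exon bases of Cfb, 2246 of 2825, are also in another gene model on the same strand that was listed at 0 TPM. So are 1656 of the 3872 of C2. Whether reads there were counted for Cfb and C2 is not given, so both levels may be understated. C3 and Ahsg did not overlap, since C3 ran from 4819 to 6451 TPM in control livers and Ahsg from 4282 to 4736 TPM. Ahsg and Fga (3274 to 4965 TPM) did overlap. Even Cfb had at least 51 reads in each library.

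Together the 41 genes took between 4.25% and 5.18% of a control library's TPM, between 4.39% and 4.62% in DKO-labelled livers, and between 4.30% and 5.07% in re-expression livers. The spread between livers differed more than the sum did. For the 38 genes with a mean of at least 100 TPM over all libraries, the median coefficient of variation (SD over mean) was 12.5% in control livers, 5.58% in DKO-labelled livers and 7.99% in re-expression livers. Of these, 31 varied more among control livers than among DKO-labelled livers (81.6%), and among all 1219 genes at that level 863 did (70.8%). Fga, for example, ran from 3783 to 3929.7 TPM in DKO-labelled livers and from 3274 to 4965 TPM in control livers. No test of this difference in spread was made.

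**Figure D1:**
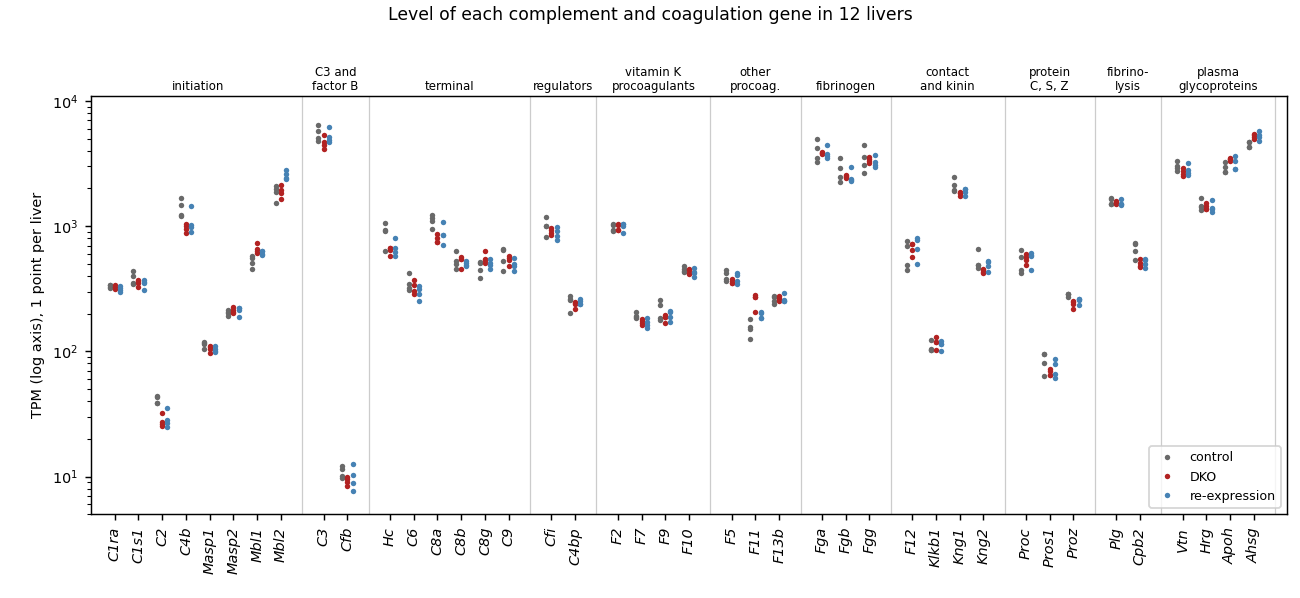
TPM of each of the 41 genes on a log axis, grouped by role, with 1 point per liver: control in grey, DKO-labelled livers in red and re-expression livers in blue, 4 of each. Levels run from about 10.9 TPM for Cfb to 5516 TPM for C3 (control means), and for most genes the 3 groups lie over each other.

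The first comparison asked how the DKO-labelled livers differed from control livers. F11, coagulation factor XI, was higher, as was Mbl1, a mannose-binding lectin. C2, C8a, Proz and Cpb2 were lower, and none of the 41 differed as much as 2-fold. That made 6 of 41 genes called by limma at adjusted p under 0.05 (14.6%), 2 higher and 4 lower, where 5.33% of all tested genes were called, 2.99% higher and 2.34% lower. The share of all genes called depended on level: with a filter of 5 TPM it was 8.52%. Of the 41, 38 had a control mean of at least 100 TPM. Shares of genes called or not overlapping were not taken among genes at that level. The median log2 change of the 41 was -0.07, with 28 below 0 and 13 above, and the median of all tested genes was 0.00. The median size of change without regard to sign was 0.16 for the 41 and 0.19 for all tested genes. In a tissue average, fewer cells of a type and less RNA per cell cannot be told apart.

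Every liver of one group lay outside the range of the other group for 11 of the 41 genes (26.8%), 4 higher and 7 lower in DKO-labelled livers, where 11.5% of all tested genes did so, 6.13% higher and 5.4% lower. The 4 were Mbl1, F11, Apoh and Ahsg, and the 7 were C2, C4b, C8a, F7, Kng1, Kng2 and Proz. Without control replicate 4 the count was 18 (43.9%), where 17.6% of all tested genes did so. The count of called genes was also sensitive to single libraries: it ran from 1 without DKO replicate 2, where 3.47% of all tested genes were called, to 5 without control replicate 4, where 4.95% were. Removal of control replicate 2, control replicate 3, DKO replicate 1, DKO replicate 4 or re-expression replicate 2 left 2. Removal of control replicate 1, DKO replicate 3, re-expression replicate 1 or re-expression replicate 4 left 3, and removal of re-expression replicate 3 left 4. Over these 12 removals the share of all tested genes called ran from 3.19% to 5.13%. In the authors' deposited table the same comparison called 9 of the 41, 3 higher and 6 lower, of a background of 9.19%. Beyond the 6 above these were Apoh higher, and C4b and Hc lower.

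**Figure D2:**
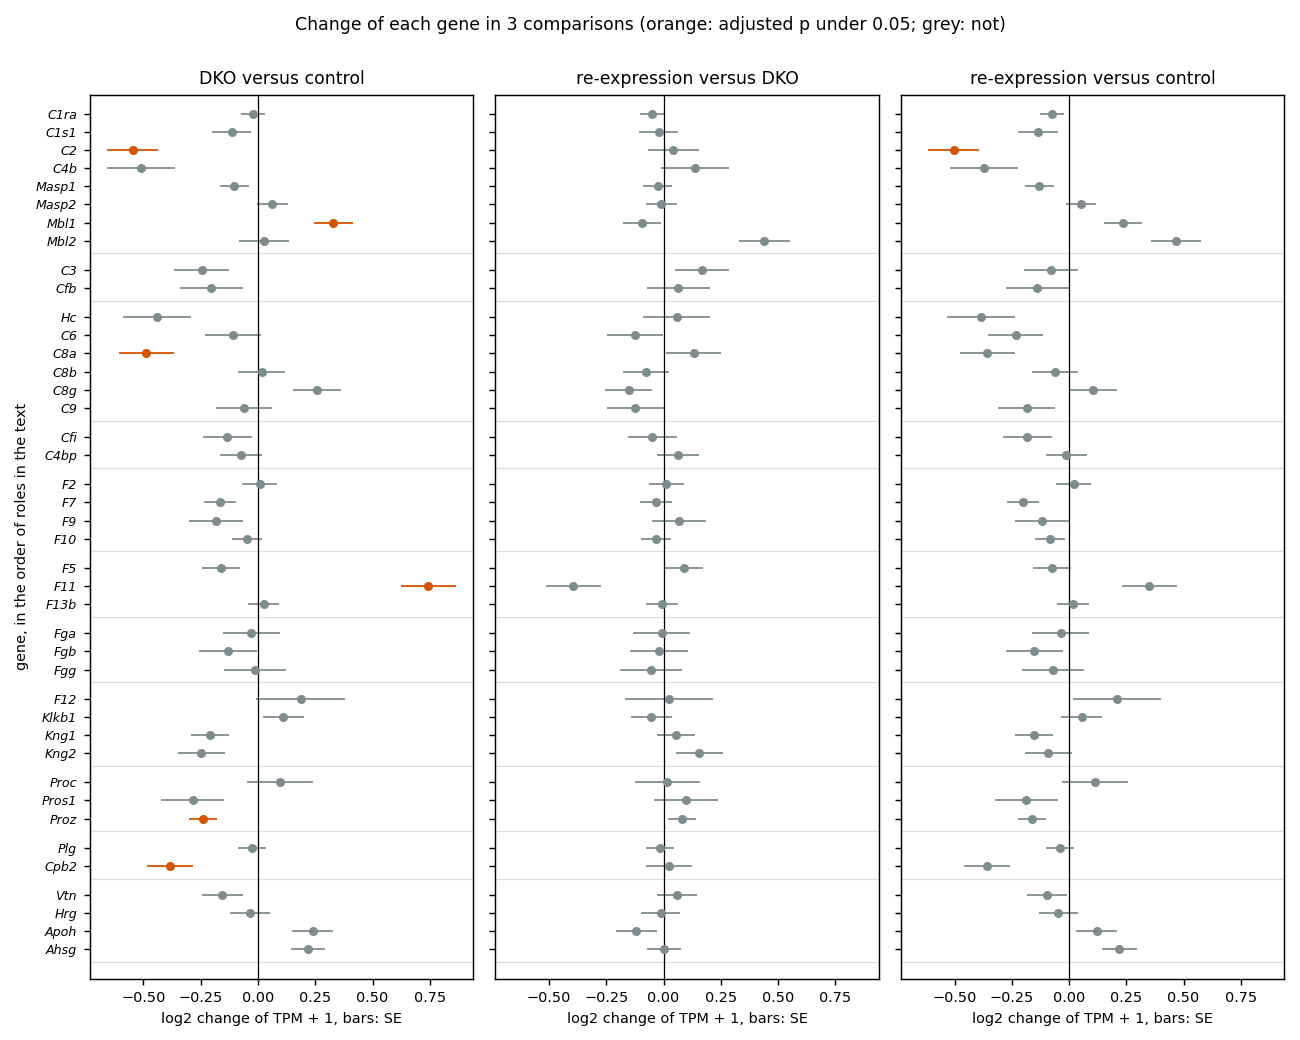
Log2 change of TPM + 1 with its standard error for each of the 41 genes in the 3 comparisons, in the order of their roles. Orange points passed the test: 6 in DKO-labelled livers against control livers, 0 in re-expression livers against DKO-labelled livers, and C2 alone in re-expression livers against control livers.

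The route that starts complement held both directions. C2 (chromosome 17, 34862604 to 34898265, minus strand, build mm10) encodes the serine protease that pairs with C4b to cleave C3. Its level was 44.0, 38.7, 42.9 and 38.6 TPM in control replicates 1 to 4, 32.5, 25.5, 26.3 and 27.2 TPM in DKO replicates 1 to 4, and 27.0, 24.9, 35.2 and 28.3 TPM in re-expression replicates 1 to 4. All 8 livers with the knockout label were below all 4 control livers. C2 was lower by 0.55 on the log2 scale in DKO-labelled livers (log2 change -0.55 ± 0.11 SE, limma adjusted p = 0.0165) and by -0.50 ± 0.11 in re-expression livers against control (adjusted p = 0.045). The first result missed the threshold when DKO replicate 2 was left out (adjusted p = 0.051). The second was lost in 14 of 23 alternatives, including the removal of any single library other than DKO replicate 1 and re-expression replicate 3.

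C4b, the source of its partner in that enzyme, stood at 1472, 1217, 1662 and 1215 TPM in control livers and at 1001, 1038, 954 and 888 TPM in DKO-labelled livers, with no overlap. Re-expression livers stood at 889.9, 987, 1458 and 1012 TPM, and replicate 3 lay within the control range. The change between DKO-labelled livers and control livers was -0.51 ± 0.15 and did not pass the test (limma adjusted p = 0.0777). It passed without re-expression replicate 3 and with voom on recovered reads, where the lowest adjusted p over all alternatives was 0.0223. C4b shares 34.6% of its 50-base words with C4a, whose mean was 20.9 TPM. The C1 proteases had close levels in all groups: C1ra had a mean of 332, 327 and 316 TPM and C1s1 of 383, 353 and 348 TPM in control, DKO and re-expression livers. C1ra shares 48.0% of its words with C1rb and C1s1 21.8% with C1s2, both copies being under 1 TPM. Masp1 and Masp2, proteases that ride on the lectins, had log2 changes of -0.10 and 0.06 between DKO-labelled livers and control livers.

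The mannose-binding lectins, which recognise sugars on microbes, had their highest means in different groups. Mbl1 (chromosome 14, 41151458 to 41159601, plus strand) stood at 574, 558, 503 and 452 TPM in control livers, 629, 607, 726 and 656 TPM in DKO-labelled livers, and 634, 599.8, 633 and 583 TPM in re-expression livers. Both knockout groups lay above the control range. The change in DKO-labelled livers was 0.33 ± 0.08 (limma adjusted p = 0.0439). That call failed in 15 of 23 alternatives, including the removal of any library but control replicate 1, with adjusted p from 0.0149 to 0.152.

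Mbl2 stood at 2094, 1963, 1517 and 1881 TPM in control livers and 2145, 1844, 1649 and 1931 TPM in DKO-labelled livers, which overlapped. In re-expression livers it stood at 2825, 2395, 2597 and 2435 TPM, above all 8 other livers. Against DKO-labelled livers the log2 change was 0.44 ± 0.11 (limma adjusted p = 0.272), and against control livers it was 0.47 ± 0.11 (adjusted p = 0.0586). Neither passed, although the second passed in 5 of 23 alternatives, with adjusted p down to 0.00878 and up to 0.136. The authors' deposited table gives Mbl2 a log2 fold change of 0.42 with an adjusted p of 0.0082 in re-expression livers against DKO-labelled livers. It was the 1 gene of the 41 called there, of a background of 0.495%. The pair shares no 50-base word, so their reads are not confused at that length.

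The promoters of the lectin genes are shown because Mbl2, which lay highest in re-expression livers, holds AGGTCA, the core motif of nuclear receptors. Its paralog Mbl1 holds a near copy. In Mbl2 the base before the motif is A, so the longer TAGGTCA is absent there. In RefSeq (GRCm38.p6), 30 bases of Mbl2 from chr19:30232861-30232890 and 30 bases of Mbl1 from chr14:41151423-41151452, both on the plus strand and upstream of the start, read as follows, with the core motif of Mbl2 and its counterpart in capitals.
Mbl2: gtttattaatctggggttgaAGGTCAgctt
Mbl1: gcttattaaactggggttgaAGGCCAgtcc
These stretches are identical at 24 of 30 bases. Counted from 1 at the 5′ end, the change in the core motif from Mbl2 to Mbl1 is T24C. The match is a description of the letters and says nothing of binding.

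At the centre of complement, C3 stood at 6451, 5042, 5751 and 4819 TPM in control livers, 5329, 4135, 4679.6 and 4416 TPM in DKO-labelled livers, and 4852, 5135, 6132 and 4729.6 TPM in re-expression livers. The groups overlapped, and the change of -0.25 ± 0.12 in DKO-labelled livers did not pass (limma adjusted p = 0.302). Cfb, the partner of C3 in the alternative pathway, had a change of -0.20 ± 0.14. Cfb lies 85 bases from C2 on chromosome 17, and 1656 of the 3872 exon bases of C2 and 2246 of the 2825 of Cfb are also covered by a read-through gene model on the same strand, which was listed at 0 TPM in all libraries. Reads of the shared exons were thus not counted for that model. The sources used here do not give whether they were counted for C2 and Cfb or left out. If left out, the levels of C2 and Cfb and their ratio rest on the unshared bases. The ratio of C2 to Cfb TPM within a liver was 3.65 to 3.96 in control livers and 2.74 to 3.25 in DKO-labelled livers, with no overlap.

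The terminal proteins build the membrane attack pore. C8a encodes the alpha chain of C8, which inserts into the membrane, and lies on chromosome 4 from 104815679 to 104876398, minus strand. It stood at 1236, 1156, 1094 and 951 TPM in control livers, 859.9, 741, 752 and 802 TPM in DKO-labelled livers, and 850.2, 843, 1083 and 712 TPM in re-expression livers. No DKO-labelled liver reached the control range, while re-expression replicate 3 did. The change in DKO-labelled livers was -0.49 ± 0.12 (limma adjusted p = 0.038). The call failed in 11 of 23 alternatives, with adjusted p from 0.00682 to 0.104, and leaving out any single library other than control replicate 4 or re-expression replicates 3 or 4 ended it.

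The other chains of C8 were not called. C8b had a log2 change of 0.02 ± 0.10, and C8g, a small lipocalin chain, had 0.26 ± 0.10 (limma adjusted p = 0.208). C8a and C8b lie tail to tail on chromosome 4, 11130 bases apart. The ratio of C8a to C8b within a liver was 2.48, 2.19, 1.74 and 2.11 in control livers and 1.56, 1.63, 1.32 and 1.46 in DKO-labelled livers, with no overlap (exact two-sided permutation p = 0.0286, the smallest that 4 against 4 can give, adjusted 0.114 over 36 ratio comparisons). It was 1.78, 1.65, 2.06 and 1.44 in re-expression livers. Hc, which encodes C5, stood at 1050.5, 919.6, 934 and 630.3 TPM in control livers and 674, 666, 581 and 642 TPM in DKO-labelled livers. Its change of -0.44 ± 0.15 did not pass (adjusted p = 0.127). It passed with voom on recovered reads, and also without control replicate 4, the low control liver (lowest adjusted p over all alternatives 0.0129). C6 and C9 had changes of -0.11 and -0.06.

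The promoters of the C8 pair are shown since they lie at opposite ends of a shared locus and C8a was called while C8b was not. The 250 bases before the RefSeq start are chr4:104876399-104876648 on the minus strand for C8a and chr4:104766067-104766316 on the plus strand for C8b. Capitals mark a STAT-type match (TTCNNNGAA) and an HNF1 motif (GTTAATNA) in C8a, and an AGGTCA core motif on the opposite strand in C8b.
C8a: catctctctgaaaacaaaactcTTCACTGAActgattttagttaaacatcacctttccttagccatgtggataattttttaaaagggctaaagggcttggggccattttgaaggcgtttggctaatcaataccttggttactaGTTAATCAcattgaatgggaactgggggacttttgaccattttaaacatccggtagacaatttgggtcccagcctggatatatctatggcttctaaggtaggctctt
C8b: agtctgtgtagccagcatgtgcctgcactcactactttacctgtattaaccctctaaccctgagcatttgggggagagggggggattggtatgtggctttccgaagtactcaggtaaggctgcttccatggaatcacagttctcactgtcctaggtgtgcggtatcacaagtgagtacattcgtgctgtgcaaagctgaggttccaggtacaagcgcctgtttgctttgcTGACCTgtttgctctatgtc
The regulators of complement did not pass in any comparison. Cfi, the protease that inactivates C3b and C4b, had a change of -0.13 ± 0.11 in DKO-labelled livers, and C4bp, its cofactor, had -0.07 ± 0.09.

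Among the procoagulant genes F11 stood apart. Factor XI is activated by factor XII or thrombin and activates factor IX. F11 lies on chromosome 8 from 45241174 to 45262031 on the minus strand (mm10). Its level was 125, 157, 182 and 150.4 TPM in control livers, 269.8, 279.7, 207 and 272 TPM in DKO-labelled livers, and 208, 185, 201 and 184 TPM in re-expression livers. All DKO-labelled livers were above all control livers, and re-expression livers lay between the 2 groups except that replicate 1 just reached the lowest DKO-labelled liver. The change in DKO-labelled livers was 0.74 ± 0.12 (limma adjusted p = 0.00433), the largest of the 41 in size, and it was called in all 23 alternatives (adjusted p from 0.000541 to 0.0273). In re-expression livers the change was -0.39 ± 0.12 against DKO-labelled livers (adjusted p = 0.442) and 0.35 ± 0.12 against control livers (adjusted p = 0.219), and neither passed.

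Klkb1, plasma prekallikrein, is the paralog of F11 and lies 4657 bases away on the same strand. It stood at 103, 123, 105 and 103 TPM in control livers, 118, 129, 103 and 119 TPM in DKO-labelled livers, and 121, 114, 115 and 101 TPM in re-expression livers. These ranges overlapped, and the change was 0.11 ± 0.09 (limma adjusted p = 0.575). The ratio of F11 to Klkb1 within a liver was 1.21, 1.28, 1.74 and 1.46 in control livers, 2.28, 2.16, 2.02 and 2.29 in DKO-labelled livers, and 1.71, 1.62, 1.74 and 1.83 in re-expression livers. DKO-labelled livers did not overlap with either other group (exact two-sided permutation p = 0.0286 for each, adjusted 0.114). F11 and Klkb1 share no 50-base word. Of the 5249 exon bases of Klkb1, 2267 are also in another gene model on the same strand, whose mean was 0.0998 TPM.

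The 250 bases before the RefSeq start of the pair are shown since F11 was called and its neighbouring paralog was not. They are chr8:45262032-45262281 for F11 and chr8:45294836-45295085 for Klkb1, both on the minus strand. Capitals mark a C/EBP-type match (TTGCNNAA) on the opposite strand, 1 in each.
F11: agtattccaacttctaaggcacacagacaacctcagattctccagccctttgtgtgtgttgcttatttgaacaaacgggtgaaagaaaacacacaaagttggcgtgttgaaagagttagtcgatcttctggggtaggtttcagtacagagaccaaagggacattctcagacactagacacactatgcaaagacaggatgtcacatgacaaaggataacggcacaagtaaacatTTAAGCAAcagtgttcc
Klkb1: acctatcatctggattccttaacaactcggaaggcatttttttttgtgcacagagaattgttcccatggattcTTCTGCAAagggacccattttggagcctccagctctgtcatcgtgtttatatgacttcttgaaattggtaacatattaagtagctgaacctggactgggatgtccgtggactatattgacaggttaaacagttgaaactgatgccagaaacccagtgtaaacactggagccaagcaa
The match in F11 begins 17 bases before the start and the match in Klkb1 177 bases before it. Neither window holds the letters AGGTCA, and nothing follows from that about a factor.

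**Figure D3:**
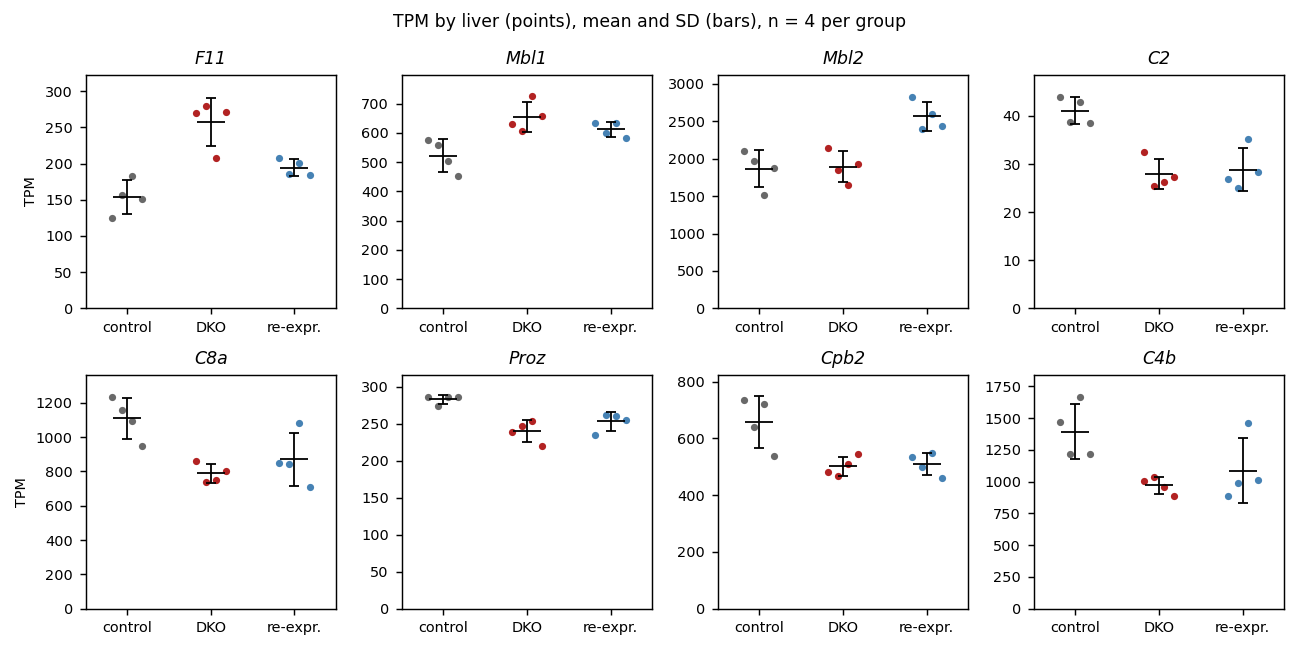
TPM of 8 genes in each liver (points) with the mean and SD (bars), 4 livers a group, axes from 0. F11 and Mbl1 lie higher and C2, C8a and Proz lower in DKO-labelled livers than in any control liver, Mbl2 is above the other groups in re-expression livers, and Cpb2 overlaps in 1 liver.

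The vitamin K dependent procoagulants, whose clotting depends on carboxylated glutamates, had small differences and 0 of 4 were called in any comparison. F2, prothrombin, had means of 977, 981 and 991 TPM in control, DKO and re-expression livers. F7, which starts coagulation with tissue factor, stood at 185 to 206 TPM in control livers and 162 to 182 in DKO-labelled livers, with no overlap and a change of -0.17 ± 0.07 (limma adjusted p = 0.229). F9 and F10 had changes of -0.18 and -0.05. F5, the cofactor of factor Xa, had a change of -0.16 ± 0.08, and F13b, the carrier subunit of the fibrin crosslinking enzyme, had 0.02 ± 0.07.

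Fibrinogen is a hexamer of paired Aα, Bβ and γ chains, encoded by Fga, Fgb and Fgg within 1 cluster on chromosome 3. Fgb stood at 3467, 2471, 2923 and 2267 TPM in control livers, 2443, 2532, 2562 and 2488 in DKO-labelled livers, and 2315, 2387, 2950.0 and 2284 in re-expression livers. The 3 genes had changes of -0.03, -0.13 and -0.01 (Fga, Fgb, Fgg) in DKO-labelled livers, and the groups overlapped. The ratio of Fgb to Fga was 0.698, 0.710, 0.696 and 0.692 in control livers, 0.636, 0.660, 0.677 and 0.633 in DKO-labelled livers, and 0.612, 0.656, 0.659 and 0.656 in re-expression livers. Every liver with the knockout label was below every control liver (exact two-sided permutation p = 0.0286 for each group against control, adjusted 0.114). The ratio of Fgg to Fga overlapped between groups, with means of 0.864, 0.874 and 0.844.

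In the contact and kinin system, which starts on negatively charged surfaces and releases bradykinin, 0 of 4 genes were called. Kng1 and Kng2, the kininogen genes, had changes of -0.21 ± 0.08 and -0.25 ± 0.10 in DKO-labelled livers (limma adjusted p = 0.206 and 0.229), and neither overlapped with control livers. Kng1 ran from 1893 to 2452 TPM in control livers and from 1740.5 to 1855 in DKO-labelled livers. These paralogs share 17.2% and 19.4% of their 50-base words, so reads may be split between them. F12, factor XII, stood at 444, 491, 696 and 756 TPM in control livers, a wider span than between group means, and had a change of 0.19 ± 0.19.

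The anticoagulants of the protein C system act on factors Va and VIIIa, and protein Z helps to block factor Xa. Proz (chromosome 8, 13060914 to 13076026, plus strand) stood at 286, 274, 286 and 286 TPM in control livers, 239, 247, 254 and 219.5 TPM in DKO-labelled livers, and 235, 262, 261 and 255 TPM in re-expression livers. The 4 control livers lay close together and above all other livers. The change in DKO-labelled livers was -0.24 ± 0.06 (limma adjusted p = 0.0428) and in re-expression livers against control -0.16 ± 0.06 (adjusted p = 0.278). The first call failed in 15 of 23 alternatives, with adjusted p up to 0.124, and leaving out any library but DKO replicate 3 or re-expression replicate 1 ended it. Proz follows F7 and F10 on chromosome 8, 4237 bases after F10, and the ratio of Proz to F10 was 0.599 to 0.654 in control livers and 0.519 to 0.596 in DKO-labelled livers. Proc stood at 421, 447, 563 and 645 TPM in control livers and 485 to 599 TPM in DKO-labelled livers, and Pros1 had a change of -0.29 ± 0.14 (adjusted p = 0.308).

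Of the fibrinolysis genes, Plg, which encodes plasminogen, had close means of 1579, 1549 and 1535 TPM. Cpb2 (chromosome 14, 75242287 to 75283555, plus strand) encodes a carboxypeptidase that protects fibrin from plasmin. It stood at 734, 638, 720.5 and 538 TPM in control livers, 480.1, 469, 511 and 544 TPM in DKO-labelled livers, and 533, 499.9, 547 and 459.5 TPM in re-expression livers. Control replicate 4 lay below DKO replicate 4, so the groups overlapped. The change was -0.38 ± 0.10 in DKO-labelled livers (limma adjusted p = 0.0497) and -0.36 ± 0.10 in re-expression livers against control (adjusted p = 0.116). The first was the call nearest to the threshold and was lost in 18 of 23 alternatives, with adjusted p up to 0.131, including the loss of any library but control replicate 4.

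The remaining plasma glycoproteins had no call. Apoh, a phospholipid-binding protein, stood at 3245, 2726, 2951 and 2695 TPM in control livers and 3422, 3340.1, 3435 and 3467 TPM in DKO-labelled livers, with no overlap and a change of 0.24 ± 0.09 (limma adjusted p = 0.172). Ahsg ran from 4282 to 4736 TPM in control livers, 4946 to 5484 in DKO-labelled livers and 4754 to 5769 in re-expression livers. Its changes were 0.22 ± 0.07 against control for each knockout group (adjusted p = 0.135 and 0.212). Vtn, vitronectin, and Hrg, histidine-rich glycoprotein, had changes of -0.16 and -0.03 in DKO-labelled livers. Ahsg, Hrg, Kng2 and Kng1 lie in a row on chromosome 16. In DKO-labelled livers Ahsg lay above and both kininogen genes below the control range. In re-expression livers Ahsg lay above it and both kininogen genes overlapped with it.

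**Figure D4:**
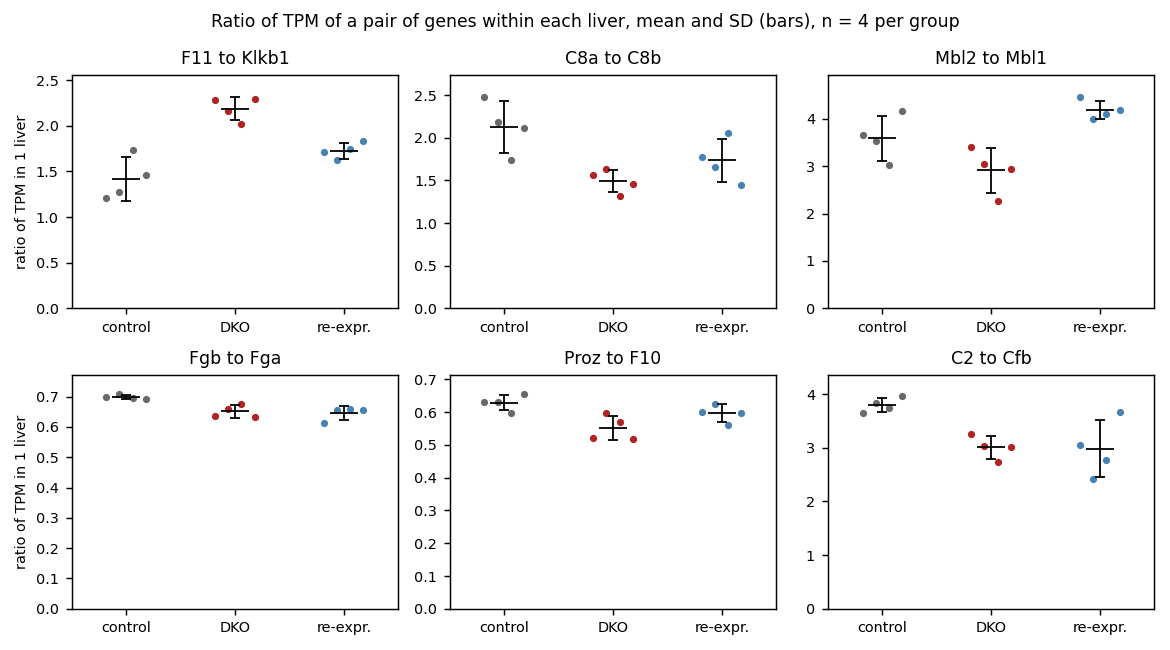
Ratio of the TPM of a gene pair within each liver (points) with the mean and SD (bars), 4 livers a group, axes from 0. F11 to Klkb1 is highest and C8a to C8b lowest in DKO-labelled livers, Mbl2 to Mbl1 is highest in re-expression livers, and Fgb to Fga is lower in both knockout groups than in control livers.

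A ratio within a liver does not depend on the scaling of the library, so 12 pairs of partners, neighbours or paralogs were set against each other in the 3 comparisons. Of the 36 comparisons, 9 had groups that did not overlap, each with the smallest p that an exact two-sided permutation test of 4 against 4 can give, 0.0286, and none passed after adjustment over the 36 (lowest 0.114). They were Fgb to Fga in both comparisons with control livers, F11 to Klkb1 in both comparisons with DKO-labelled livers, and C8a to C8b, Proz to F10 and C2 to Cfb between DKO-labelled livers and control livers. Mbl2 to Mbl1 and Kng1 to Kng2 made up the rest, between re-expression livers and DKO-labelled livers. Mbl2 to Mbl1 was 3.01 to 4.16 in control livers, 2.27 to 3.41 in DKO-labelled livers and 3.99 to 4.45 in re-expression livers. The share without overlap among ratios of other gene pairs was not taken, so the count of 9 of 36 has no background here. A ratio shows unequal change and not which gene of the pair changed. With so high a smallest p, the adjustment could be passed only if most of the 36 comparisons separated fully, so nothing is concluded from its failure. F11, C8a, Proz and C2 were also called above from the same values, so their ratios are not independent of those calls.

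The second comparison asked what re-expression did to these genes in DKO-labelled livers. Here 0 of the 41 genes were called by limma, where 0.0724% of all tested genes were, 0.0278% higher and 0.0446% lower. Without adjustment, F11 and Mbl2 had p under 0.05, 2 of the 41, where 6.19% of all tested genes did, and voom on recovered reads also called 0. The median log2 change was -0.01, and 21 genes were below 0 and 20 above. Mbl2 was the 1 gene whose groups did not overlap (4.25% of all tested genes, 2.09% higher and 2.16% lower), and the count was 4 without re-expression replicate 1, 3 without re-expression replicate 4, and 2 without re-expression replicate 3 or DKO replicates 1, 2 or 3. The share of all tested genes without overlap was 9.28%, 7.71%, 6.54%, 7.2%, 7.04% and 7.43% in the same order. For the 6 genes called in the first comparison, the changes here were -0.39 for F11, -0.09 for Mbl1, 0.04 for C2, 0.13 for C8a, 0.08 for Proz and 0.02 for Cpb2. The comparisons share the DKO-labelled livers, so these values are not independent of the first.

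The third comparison asked where the re-expression livers stood relative to control livers. C2 was the 1 gene called, lower, where 1.82% of all tested genes were called, 1.16% higher and 0.663% lower. Without adjustment, 11 of the 41 had p under 0.05 (12.5% of all tested genes). Groups did not overlap for 6 of the 41, C2 and Proz lower and Mbl1, Mbl2, F11 and Ahsg higher, where 7.28% of all tested genes did so, 4.29% higher and 3.0% lower. That count was 11 (26.8%) without re-expression replicate 3 and 11 without control replicate 4, where 9.86% and 11.6% of all tested genes did so. The median log2 change was -0.08, with 29 genes below 0 and 12 above. The count of called genes was 0 without control replicates 1, 2 or 3, DKO replicates 2, 3 or 4, or re-expression replicates 1, 2 or 4, and 2 without control replicate 4. Over the removal of each library the share of all tested genes called ran from 0.975% to 1.85%.

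Levels of acute phase genes moved with several of these values. Saa1, serum amyloid A, stood at 308, 165, 754 and 159 TPM in control livers, 12.9, 15.3, 16.4 and 9.84 TPM in DKO-labelled livers, and 17.5, 10.3, 92.2 and 14.6 TPM in re-expression livers. Orm1, orosomucoid, stood at 5027, 3646, 4765 and 2569 TPM, then 2099.6, 1766, 1813 and 1907 TPM, then 2064, 1803, 2782 and 1954 TPM. Control replicates 1 and 3 and re-expression replicate 3 were the highest of their groups for both. The same was so of 15 of the 41 genes (36.6%), where 2.86% of all tested genes shared this order. They were C2, C4b, C3, Cfb, Hc, F7, F10, Fga, Fgb, Fgg, Kng1, Plg, Cpb2, Vtn and Hrg. Re-expression replicate 3 alone was the highest of its group for 25 of the 41, C8a among them, where 21.5% of all tested genes had it highest. F11, Mbl1, Mbl2 and Proz were not among the 15. The order was looked for after the levels of these livers were seen, and the part of an acute phase state in the results was not tested.

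**Figure D5:**
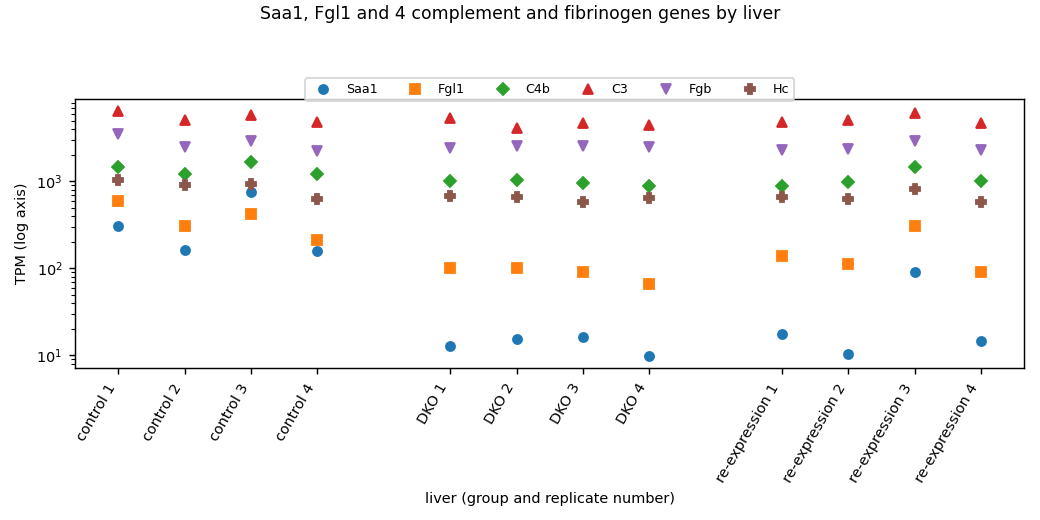
TPM on a log axis of Saa1, Fgl1 and 4 complement and fibrinogen genes in each of the 12 livers, by group and replicate number. Saa1 lies between 159 and 754 TPM in control livers and at 92.2 TPM or below in all other livers, and re-expression replicate 3 is the highest of its group for each gene shown.

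Genes of the same systems outside the 41, such as receptors, copies, vitamin K enzymes and related plasma proteins, were taken from a list of 57, of which 47 were tested. Between DKO-labelled livers and control livers 5 were higher and 1 lower (12.8%, where 5.33% of all tested genes were called). Fgl1, a fibrinogen-like hepatocyte protein, was lower, with a log2 change of -2.0 ± 0.37 (limma adjusted p = 0.00989). It stood at 588, 309, 418 and 213 TPM in control livers and 101, 101, 92.0 and 65.5 TPM in DKO-labelled livers, so all of the latter were lower. In re-expression livers it stood at 139.7, 114, 306 and 91.1 TPM.

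The genes that were higher are made by different cells. Itih1 and Itih2 encode heavy chains of the inter-alpha-inhibitors of liver, and rose by 0.33 ± 0.07 and 0.35 ± 0.07 (limma adjusted p = 0.0157 and 0.0139). Mug1, a murinoglobulin that traps proteases, rose by 0.41 ± 0.08 (adjusted p = 0.0115), from a mean of 3006 ± 156 to 3998 ± 297 TPM (SD, n = 4 each). Vwf, the von Willebrand factor of endothelium and platelets, rose by 0.79 ± 0.14 (adjusted p = 0.00739) from 2.51 ± 0.505 to 5.06 ± 0.551 TPM, a level at which the added 1 TPM lowers the fold. Colec11, a collectin that is also on the stellate cell list, rose by 0.51 ± 0.11 (adjusted p = 0.0228), and this call was lost without control replicates 1 or 3 or DKO replicates 1, 2 or 3. Between re-expression livers and DKO-labelled livers 0 of the 47 were called. Against control livers Mug1 was higher in re-expression livers (0.36 ± 0.08, adjusted p = 0.0433), a call that was lost in 15 of 23 alternatives, including the removal of any library but DKO replicate 3.

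The promoters of 33 of the 41 genes were found in the RefSeq table (GRCm38.p6), and the 250 bases before the start were searched on both strands. AGGTCA, the nuclear receptor core motif, was in 11 of 33 (33.3%), where 15.8% of all 27025 genes had it. They were Apoh, C3, C6, C8b, F10, F2, F5, F7, Fgg, Kng2 and Mbl2, and none of the called genes with a promoter in the table (F11, Mbl1, C8a, Proz and Cpb2) was among them. TAGGTCA, the same letters with the preceding T of the ROR element and so a subset, was in Apoh and C6 (6.06%, against 2.55% of all genes). The E-box CACGTG was in 0 (6.86% of all genes), as were the D-boxes TTACGTAA (0.118%) and TTATGTAA (0.977%). The STAT-type TTCNNNGAA was in 6 (18.2%, against 8.13%): C8a, F9, Fga, Fgb, Masp2 and Pros1. The HNF1 motif GTTAATNA was in 5 (15.2%, against 2.73%): C4bp, C8a, F13b, Fga and Hc. The C/EBP-type TTGCNNAA was in 11 (33.3%, against 10.8%), among them F11, Klkb1, C3, Fga and Fgb. No test of these shares was made.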

How the data were processed

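Total RNA of 12 frozen livers was made into stranded total RNA libraries, per the labels' protocols. The submitters' processing notes name build mm10 and DESeq2 1.36.0, featureCounts 2.0.1, SAMtools 1.9, STAR 2.7.1a and bcl2fastq 2.17. Whether counting used strand is not stated there. The deposited values are TPM computed by the authors. The authors also deposited log2 fold changes and adjusted p-values for 3 comparisons that the file headers only number. The one numbered 1 matched DKO-labelled livers against control livers (r = 0.936 across 17957 genes) and the one numbered 2 re-expression livers against DKO-labelled livers (r = 0.916). The last matched no contrast and was not used. Genes are not independent replicates in these correlations.

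Each TPM times the gene's deposited length less 199 bases came to whole reads of the library, within 0.01 reads, for 100% of values. These reads gave the depth and an alternative. Testing covered genes averaging 1 TPM or more over the libraries, with limma 3.58.1 in R 4.3.3 on log2(TPM + 1), a scale on which low genes show smaller folds. The model held the 3 group means for 12 libraries (9 residual degrees of freedom), and its prior variance followed the mean level. Tests were two-sided with Benjamini-Hochberg adjustment over 17957 genes, and a gene is called at adjusted p under 0.05. P-values measure the spread between livers, which the labels describe as biological replicates. No pair of replicates agreed within sampling noise (chi-square per degree of freedom at least 4.08).

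The genes and lists were chosen with earlier results of these data known. All 41 genes may be named, as may Nr1d1, Nr1d2, Saa1, Orm1 and the called genes of the list of 57. Markers are given as list sums. Cholangiocyte and lymphocyte lists had 1 and 0 genes called higher and 0 called lower in DKO-labelled livers against control livers, and the megakaryocyte and platelet list had 0 called. Gene positions are from GENCODE release M21 on mm10, whose exon lengths equal the deposited ones for all 43 genes compared. A planned comparison of proteins was replaced by the share of 50-base words that GENCODE transcripts have in common. Promoters are from RefSeq. Other software was statmod 1.5.0, data.table (version 1.17.8), Python 3.11.15, pandas 2.3.3, numpy 2.4.6 and matplotlib 3.10.9.

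Alternatives were other pseudocounts (0.1 and 5), no filter and a filter of 5 TPM, size factors, quantile normalization, only the 8 libraries compared, a replicate block, a robust prior, sample quality weights, voom on recovered reads, and each library left out in turn.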

Additional observations from a re-analysis of the deposited data

Results flagged for a closer look

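For 6 genes the highest or lowest of 4 livers stood apart from the rest by a gap past Dixon's critical value, out of 123 sets of 4 livers examined, and chance gives about 5% of such sets. F11 was at 207 TPM in DKO replicate 3, with the other DKO-labelled livers from 269.8 to 279.7. Proz was at 274 TPM in control replicate 2, with the others from 285.7 to 286.4. Klkb1 was at 123 TPM in control replicate 2, with the others from 103 to 105, and Kng2 was at 653 TPM in control replicate 1, with the others from 464 to 492. In re-expression livers F13b was at 289.9 TPM in replicate 1, with the others from 251 to 256, and Fgb was at 2950.0 TPM in replicate 3, with the others from 2284 to 2387.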

How the results depend on the processing

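Between DKO-labelled livers and control livers, 6 of the 41 genes were called, 2 higher and 4 lower. With no filter on low values the counts were 2 in all, 1 higher and 1 lower, and more genes were tested (2.56% of them called, against 5.33%). With the 8 libraries alone they were 3, 1 and 2 (3.11% of all genes). With quantile normalization 1 was higher (5.47% of all genes called), and with sample quality weights 2 were lower (4.97%). With voom, which called 6.83% of all genes, C4b and Hc were gained and Proz was lost. Leaving out 1 library gave 1 to 5 in all, 1 to 2 higher and 0 to 4 lower (3.19% to 5.13% of all genes). F11 was called in every one of these alternatives and C2 in all but 1. Between re-expression livers and DKO-labelled livers 0 were called in any alternative.

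Between re-expression livers and control livers 1 of the 41 was called, 0 higher and 1 lower. With no filter, the 8 libraries alone or sample quality weights it was 0 (0.917%, 0.902% and 1.56% of all genes, against 1.82%). With a filter of 5 TPM, size factors or quantile normalization it was 2, of which 1 was higher. With voom, which called 2.99% of all genes, it was 3, of which 1 was higher and 2 lower. Leaving out 1 library gave 0 to 2 in all and 0 to 2 lower (0.975% to 1.85% of all genes). Of the other 47 genes 1 was called there. It was 0 with no filter, the 8 libraries or the weights, 2 with the filter of 5 TPM or size factors, 6 with voom, and 0 to 2 with a library left out. The cause of these differences was not tested. No result changed sign after being called.

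Deviations of livers with the same replicate number had correlations from -0.069 to 0.137, and those with different numbers from -0.126 to 0.088. Between control and re-expression livers the same-number values were 0.137, 0.038, 0.070 and 0.088 for replicates 1 to 4. Different numbers there ran from -0.126 to 0.039. Whether the numbers pair the livers is not settled by these values. With the replicate block 3 of the 41 genes were called between DKO-labelled livers and control livers (4.33% of all genes), 1 higher and 2 lower. Between re-expression livers and control livers the replicate block gave 1 in all, 1 higher and 0 lower, and 0 of the other 47 (1.16% of all genes). In a window of 200 bases the count of promoters with a motif fell from 11 to 8 for AGGTCA (33.3% to 24.2%, all genes 12.9%), from 2 to 1 for TAGGTCA, from 6 to 4 for TTCNNNGAA, where C8a and Fga no longer had it, and from 11 to 10 for TTGCNNAA, and it stayed at 5 for GTTAATNA. Size factors or quantile normalization moved the median of all genes by less than 0.05 on the log2 scale.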
